A study of Miniopterus schreibersii with 14 samples.

Results

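The metapodials of bat fetuses, the long bones of the palm and sole, were set against the digits of earlier embryos, limb by limb. The comparison uses 4 of the 14 mRNA libraries in the series, chosen by their labelled part and stage, and every library is a different dissected part. The fetal group holds metacarpals II-V of the forelimb and metatarsals I-V of the hindlimb. The S15-17 group holds forelimb digits II-V and hindlimb digits I-V. All come from the common bent-wing bat, Miniopterus schreibersii, and the labels give no genotype or treatment. The other 10 libraries are 6 parts of the S14 limb buds, forelimb digit I, and interdigital tissue from 3 places (between forelimb digits I and II, between forelimb digits II and V, and in the foot). They were used here only as separate libraries beside the 4.

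In mammalian limbs, metapodials begin as condensed mesenchyme, turn into cartilage models, and are then replaced by bone from the shaft outward while growth plates lengthen them. In bats the metacarpals of digits II-V lengthen far more than the metatarsals and carry the wing membrane, while digit I and the foot stay short. The comparison therefore spans the step from digit rays to growing skeleton in a wing and in a foot.

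Each library is a table of scores, which are normalized read numbers rounded to whole numbers, for 64618 assembled components. The deposited values are named gene counts, and whether a component is a whole gene or a piece of one is not given. None of the component identifiers matched the RefSeq gene table of this species (0 matches among 22775 genes), so no component could be tied to a gene. Lists of cartilage, bone, muscle, blood, vessel and skin markers could not be read, and the labelled tissues were not checked against markers. The 4 libraries held 5474111 to 7648427 reads. Fetal and digit libraries differ in stage and in what was dissected, and these cannot be told apart, nor can shifts in cell numbers from shifts in RNA per cell. Nothing in the labels says whether parts of 1 period share an embryo. The p-values thus rest on how far the change differs between the limbs, with a spread shared in part over components. They do not measure the spread between animals.

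Differences were taken on log2(score + 1) after each library was centred on its median, over the 17396 components that averaged a score of 20 or more in the 4 libraries. With limb as a block, limma called 6974 of them (40.1%) at a Benjamini-Hochberg adjusted p under 0.05. Of these, 2917 rose in the metapodials (16.8% of all tested) and 4057 fell (23.3%). An unadjusted p under 0.05 was found for 9009. The split between directions depends on the scaling: upper-quartile scaling, which moves the median difference of all components by 0.21 on the log2 scale, gave 3173 higher and 2622 lower. Without forelimb digits II-V, or without hindlimb digits, limma called 0 components, while 5550 and 5690 had an unadjusted p under 0.05. In those fits, which have no limb term, the spread between libraries comes from the fetal pair alone, and that pair lay farther apart than the digit pair.

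With median centring and this filter, rises were fewer than falls and had the larger median size. The median log2 difference of the components that rose was 2.17, and 1592 of them (54.6%) were over 4-fold higher, 575 of these over 16-fold. The median of those that fell was -1.34, with 897 (22.1%) over 4-fold lower and 114 over 16-fold lower. Changes of under 2-fold made up 293 of the rises and 1058 of the falls. The rises had a median mean score of 162, against 378 for the falls. Standard errors were larger at low scores, where a call needs a larger difference, and the part of this in the sizes was not tested. Over all tested components the median difference was -0.18, since centring each library on its median does not set the median difference to 0.

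The balance shifted with abundance. Among 6277 components with a mean score of 20 to 100, 16.8% rose and 12.2% fell. Among 9141 with a mean of 100 to 1000, 16.9% rose and 27.5% fell. Among the 1978 over 1000, 16.1% rose and 39.6% fell. The share that rose was thus nearly level across abundance, while the share that fell was larger in each higher class. The classes use the scores of the same 4 libraries that made the calls, and standard errors were larger at low scores. The part of either in these shares was not tested.

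The change ran in parallel in the wing and the foot. Metacarpals had 1771 components (10.2%) over 4-fold above forelimb digits II-V and 1062 (6.1%) over 4-fold below. Metatarsals had 2044 (11.7%) over 4-fold above hindlimb digits and 1170 (6.73%) below. Within a limb the comparison is 1 library against 1, with no replicate check. Over 4-fold higher in both limbs were 1311 components (7.54%), which are 74.0% of the forelimb list and 64.1% of the hindlimb list. Over 4-fold lower in both were 644 (3.7%), or 60.6% and 55.0% of these lists.

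The 2 limbs share no library, so their changes can be set against each other. Parts of 1 period may still share an embryo, and what that would add to the agreement was not tested. Across the 17396 components, which are not independent replicates, Pearson's r between the limb changes was 0.811 and Spearman's rho 0.818, and 83.8% had the same sign. By mean score, r was 0.763 at 20 to 100, 0.843 at 100 to 1000 and 0.906 above 1000. In the same order, rho was 0.786, 0.837 and 0.87, and the share with the same sign 81.2%, 85.0% and 86.5%. Counting error is larger at low scores, and its part in this order was not tested.

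**Figure D1:**
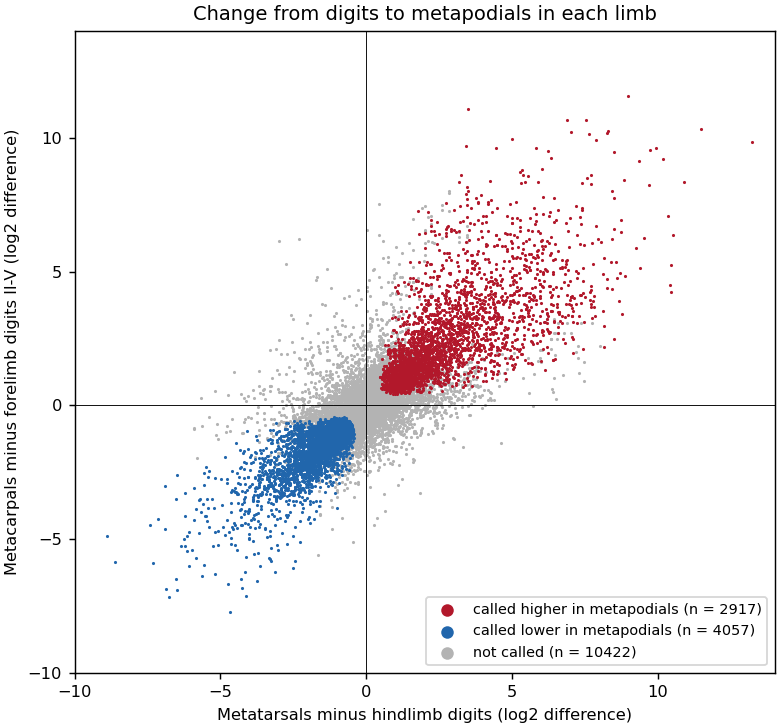
Change in each limb for the 17396 tested components: metacarpals minus forelimb digits II-V on the vertical axis and metatarsals minus hindlimb digits on the horizontal axis, both as median-centred log2 differences. Red points are the 2917 called higher in metapodials, blue points the 4057 called lower and grey points those not called; most of the cloud lies along the rising diagonal, with rises reaching farther from 0 than falls.

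The limbs themselves differed more in the fetal pair than in the digit pair. Among the 11119 components whose mean score reached 100, the root mean square log2 difference was 0.82 between metacarpals and metatarsals, against 0.4 between forelimb and hindlimb digits. The step from digits to metapodials was larger than either, at 1.5 in the forelimb and 1.66 in the hindlimb. Counting error gives a median SD of 0.13 to 0.15 for such differences. Over 4-fold apart were 170 components higher and 275 lower in metacarpals than in metatarsals, against 14 higher and 15 lower in forelimb than in hindlimb digits. The median absolute log2 difference was 0.29 in the fetal pair and 0.18 in the digit pair. Each part is 1 library, and the fetal libraries have no labelled stage number. A difference in age between them was not tested.

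In a minority of components the size of the change differed between limbs by over 4-fold. The forelimb change lay above the hindlimb change in 604 components (3.47%) and below it in 675 (3.88%). In 404 of the 604 and 423 of the 675 the fetal libraries were themselves over 4-fold apart, while the digit libraries were that far apart in 39 and 63. With 1 library per part this difference between limbs was not tested. Opposite changes of over 4-fold each way were found in 12 components (0.069%), and all 12 were higher in metacarpals than in digits II-V and lower in metatarsals than in hindlimb digits. The reverse combination was found in 0 (0.0%). These 12 had low scores, from 46 to 687 in metacarpals and 0 to 31 in metatarsals, against 0 to 110 in digits II-V and 7 to 149 in hindlimb digits.

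The 2 called rises with the largest differences were nearly missing from the digits, which a choice by size of difference favours. Component comp1255_c0 scored 13004 in metacarpals and 9449 in metatarsals, against 12 in forelimb digits II-V and 0 in hindlimb digits. The score ratio was 1070 in the forelimb (exact 95% interval 518 to 2660, counting error only). In the hindlimb it was at least 1840, against a floor of 3 reads per library. Its S14 bud scores ran from 0 to 2 with a median of 0.0, and digit I had 0. Interdigital tissue between digits I and II stood apart from these with 261, while the tissue between digits II and V had 3 and that of the foot 15. In limma its log2 difference was 11.54 (SE 0.77, adjusted p = 0.0028), higher in both limbs.

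Component comp1375_c0 was not seen in either digit library. It scored 1414 in metacarpals and 2830 in metatarsals, against 0 in forelimb digits II-V and 0 in hindlimb digits. That is at least 271-fold higher in the forelimb and at least 551-fold higher in the hindlimb, against 3 reads per library. All earlier libraries were at or near 0: the S14 buds ran from 0 to 4 with a median of 2.0, interdigital tissue II-V had 2, and the remaining S15-17 libraries had 0. The log2 difference in limma was 10.92 (SE 0.47, adjusted p = 0.0019).

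The 2 called falls with the largest differences were well above 0 in every earlier library. Component comp657_c0 scored 21 in metacarpals and 3 in metatarsals, against 1169 in forelimb digits II-V and 1575 in hindlimb digits. In the S14 buds its lowest, median and highest scores were 1257, 2140.5 and 2564, and digit I had 1989. The 3 interdigital libraries had 2209, 3046 and 2310, so all 12 libraries before the fetal stage exceeded 1000. The fetal pair was uneven, with 16 reads in metacarpals and 2 in metatarsals. The limma log2 difference was -7.22 (SE 0.67, adjusted p = 0.004).

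Component comp775_c0 followed the same course. Its fetal pair rests on 3 reads in metacarpals and 4 in metatarsals, too few to judge how alike the pair is. It scored 4 in metacarpals and 6 in metatarsals, against 666 in forelimb digits II-V and 773 in hindlimb digits. The S14 buds had 714, 1290.0 and 2540 as lowest, median and highest score, digit I had 1318, and the interdigital libraries 1013, 1501 and 1512. The 666 of forelimb digits was the lowest score of the 12 earlier libraries, and the fetal pair lay far below it. The limma log2 difference was -6.97 (SE 0.35, adjusted p = 0.002).

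**Figure D2:**
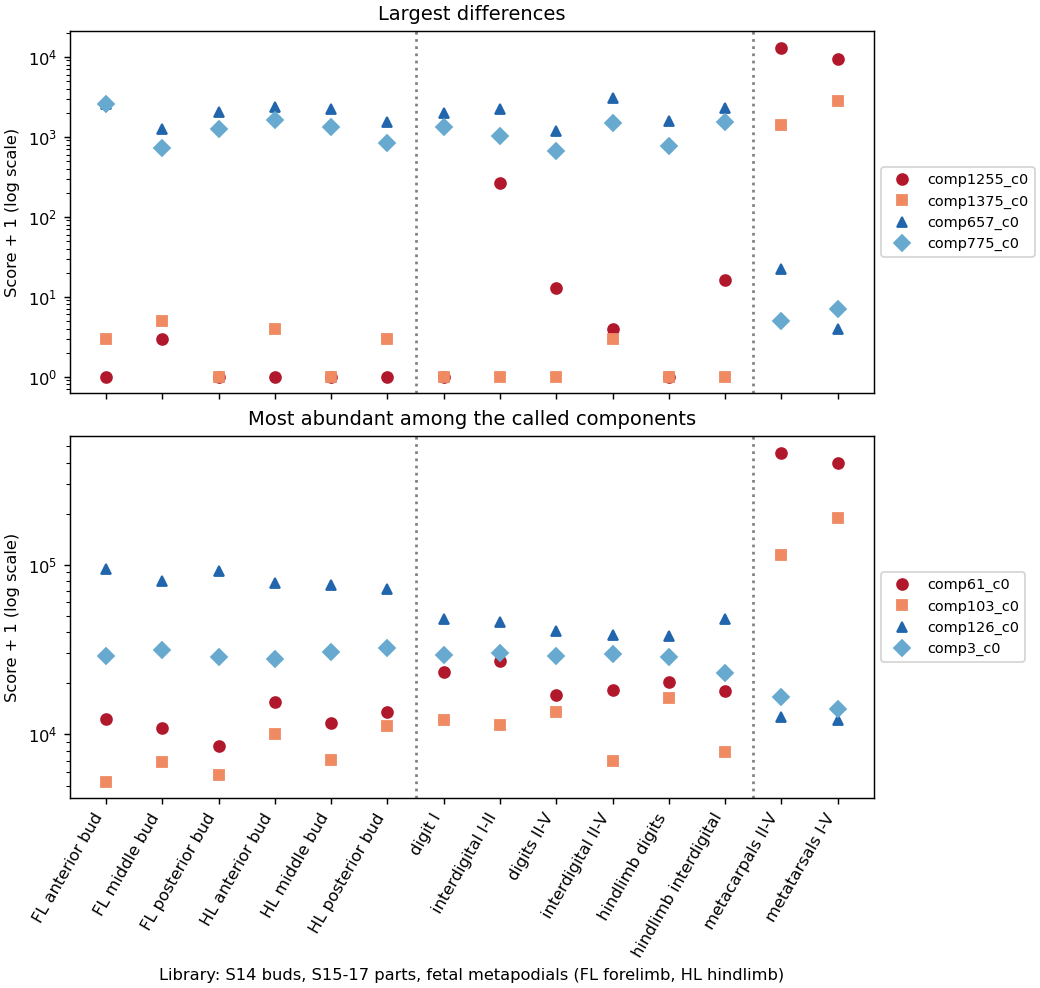
Scores plus 1 on a log axis in all 14 libraries, in order of stage, for the 2 called rises and 2 called falls with the largest differences (top) and the 2 most abundant called rises and falls (bottom), red and orange for rises and blue for falls. The rises comp1255_c0 and comp1375_c0 score 15 or less before the fetal stage, apart from 261 for comp1255_c0 in interdigital tissue I-II, while comp657_c0 and comp775_c0 hold high scores until S15-17 and are low in the fetal pair.

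A few very abundant components took a large share of the fetal score. In metacarpals 796 components made up 50% of the score and in metatarsals 768, against 1163 in forelimb digits II-V and 1180 in hindlimb digits. The other 10 libraries needed 990 to 1204, so the fetal pair lay below all of them. The means were 782 ± 19.8 and 1172 ± 12.0 components (SD, n = 2 each), with an exact two-sided permutation p of 0.333, the smallest that 2 against 2 allows. The 100 most abundant components of each library held 27.7% in metacarpals and 26.9% in metatarsals, against 18.3% and 17.6% in the digits. Without the 15 components that are among the 10 most abundant of either group, 50% was reached at 1298 and 1167 components in the fetal pair, against 1352 and 1354 in the digits, so the gap in concentration was narrower.

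The 10 most abundant components of each library held 13.3% in metacarpals and 12.6% in metatarsals, against 5.68% and 5.2% in the digits. In the other 10 libraries they held 4.9% to 5.81%. The 10 most abundant fetal components held 12.9% of the metacarpal and 12.0% of the metatarsal score. They held 4.53% and 4.22% in the digits and 3.29% to 4.57% in the other 10 libraries, a gap that their choice by fetal score favours. Of the 10 most abundant fetal components, 7 were called higher and 3 had no call. Of all tested components, 16.8% were called higher and 23.3% lower. Of the 10 most abundant digit components, 2 were called higher and 3 lower, and 5 components were in both sets. Both sets were chosen on the scores that the calls rest on, so nothing is read from these counts.

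**Figure D3:**
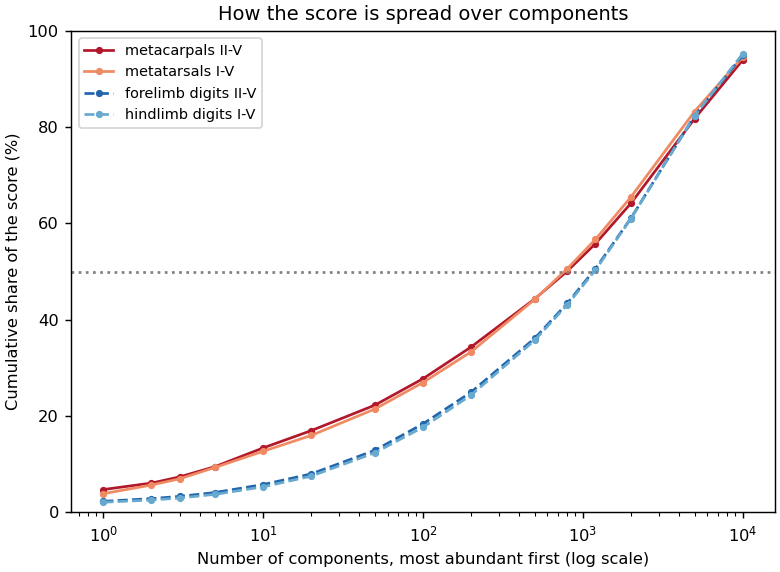
Cumulative share of the score in percent against the number of components, most abundant first, on a log axis, for metacarpals and metatarsals (solid) and forelimb and hindlimb digits (dashed). The fetal curves lie above the digit curves from the first component, cross 50% at 796 and 768 components, against 1163 and 1180 in the digits, and meet them at the right.

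One component stood out in amount. Component comp61_c0 scored 457424 in metacarpals and 397550 in metatarsals, against 17019 in forelimb digits II-V and 20364 in hindlimb digits. It alone took 4.64% and 3.78% of the fetal scores, against 0.179% and 0.208% of the digit scores. The score ratio was 26.9 in the forelimb (exact 95% interval 26.3 to 27.4) and 19.5 in the hindlimb (19.2 to 19.9), both counting error only. Its log2 difference in limma was 4.47 (SE 0.21, adjusted p = 0.0019). In libraries outside the comparison it had 8576 to 15563 in the S14 buds, with a median of 11986.5, and 23413 in digit I. The interdigital libraries had 27160, 18215 and 17943, so its scores at S15-17 all exceeded those in the buds.

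Among the called rises, comp103_c0 came next in mean fetal score. It scored 114264 in metacarpals and 188867 in metatarsals, against 13530 in forelimb digits II-V and 16487 in hindlimb digits, with a limma log2 difference of 3.25 (SE 0.22, adjusted p = 0.0028). The S14 buds had 5271, 6988.0 and 11183 as lowest, median and highest score. Digit I had 12105, and the interdigital libraries 11315, 7002 and 7863, within or just above the bud range.

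The most abundant component among those that fell, comp126_c0, scored 12668 in metacarpals and 12146 in metatarsals, against 40514 in forelimb digits II-V and 37883 in hindlimb digits. Its log2 difference in limma was -1.71 (SE 0.18, adjusted p = 0.0047). It had been higher still in the S14 buds, at 71480 to 94121 with a median of 79355.0, and scored 48113 in digit I and 46232, 38630 and 47917 in interdigital tissue. Its scores thus stood in 3 steps down, with no overlap between S14, S15-17 and fetal libraries.

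Component comp3_c0 showed no such earlier step. It scored 16705 in metacarpals and 14052 in metatarsals, against 28957 in forelimb digits II-V and 28718 in hindlimb digits. Bud scores ran from 27755 to 32138 with a median of 29853.5, digit I had 29284, and the interdigital libraries had 30261, 29858 and 23002. Its limma log2 difference of -0.96 (SE 0.17, adjusted p = 0.014) lost its call under upper-quartile scaling (adjusted p = 0.057).

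In sum of scores, the components that rose held 31.4% of the metacarpal and 36.4% of the metatarsal score, against 7.6% and 7.84% in the digits. Those that fell held 19.0% and 17.0% in the fetal pair, against 42.4% and 42.2% in the digits. These shares describe the lists, which the same libraries chose. In the other 10 libraries, which did not choose them, the components that later rose held 5.49% to 8.53% and those that later fell 41.2% to 47.7%. These values lay near those of the digits. The distance between digits and metapodials was set by the choice of the lists, so nothing is read from it.

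Fetal libraries showed more components at equal depth. With 5474111 reads drawn from each library, 48025 components had a read in metacarpals and 45722 in metatarsals, against 45377 in forelimb digits II-V and 43289 in hindlimb digits. The fetal library was higher in each limb. Forelimb libraries were also higher than hindlimb libraries at each stage, and the spread between libraries of a part was not measured. At least 10 reads were found for 18537 and 17938 components in the fetal pair, against 17344 and 16854 in the digits.

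Gained components outnumbered lost ones. At 0 reads in both digit libraries and at least 10 in each fetal library stood 213 of the 64618 components. At 0 in both fetal libraries and at least 10 in each digit library stood 35 of the 64618. The fetal libraries are deeper, which eases a gain and hinders a loss, and the part of depth in this difference was not tested. Of the 213, 95 passed the filter on mean score, as did 4 of the 35. The largest gain had 1760 reads in 1 library, while the most any lost component had held in a digit library was 41 reads.

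The gained components were also scarce in libraries that the choice did not use. Over the other 10 libraries together, 43 of the 213 had 0 reads, 134 had up to 3, and the median was 2 reads. The highest total was 46 reads. The 35 lost components were mostly present in the other libraries: 28 had a read in every one of the other 10 libraries, and their median total there was 149 reads. In the S14 buds the median of their mean reads was 13.5, and in the other S15-17 libraries 17.2. Most lost components were thus read at a low level from the buds on, and 28 had a read in every bud library. Both lists were chosen in part on the digit libraries, which favours such counts in related libraries. No background over other components was taken.

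Which changes were already under way before the fetal stage was asked in the 10 libraries that the fetal comparison does not use. Digit I and interdigital tissue of S15-17 were set against the S14 buds in limma with limb as covariate, over the same 17396 components. This earlier comparison called 5788 (33.3%), 2684 higher (15.4%) and 3104 lower (17.8%). It compares different dissected parts as well as stages.

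Of the 2917 components that rose in the metapodials, 829 (28.4%) were called higher in the earlier comparison, against 15.4% of all tested, and 160 (5.49%) were called lower, against 17.8%. Of the 4057 that fell, 1324 (32.6%) had been called lower and 343 (8.45%) higher. Most had no earlier call, 1928 of the rises and 2390 of the falls. The median earlier log2 difference was 0.44 for the rises (quartiles -0.02 and 1.03) and -0.21 for the falls (quartiles -0.48 and 0.09). Leaving out each of the 10 libraries in turn, 20.9% to 26.7% of the rises were called higher earlier, against 11.6% to 15.5% of all tested. Of the falls, 25.3% to 39.1% were called lower, against 13.6% to 20.8% of all tested.

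Shares within classes of abundance ran the same way. Among components with a mean score over 1000, 45.1% of the 319 rises had been called higher earlier, against 14.8% of all in that class, and 43.8% of the 783 falls had been called lower, against 30.2%. At 100 to 1000, 30.3% of the rises had been called higher, against 14.5%, and 33.1% of the falls lower, against 21.4%. At 20 to 100, the share of the rises was near that of the class, 20.5% against 17.0%. For the falls it was 19.8% against 8.84%. Of the 1592 over 4-fold higher, 415 (26.1%) had been called higher and 54 (3.39%) lower earlier, against 15.4% and 17.8% of all tested. Of the 897 over 4-fold lower, 242 (27.0%) had been called lower, against 17.8%, and 127 (14.2%) higher, near the 15.4% of all tested. These counts are descriptions and were not tested against the background.

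**Figure D4:**
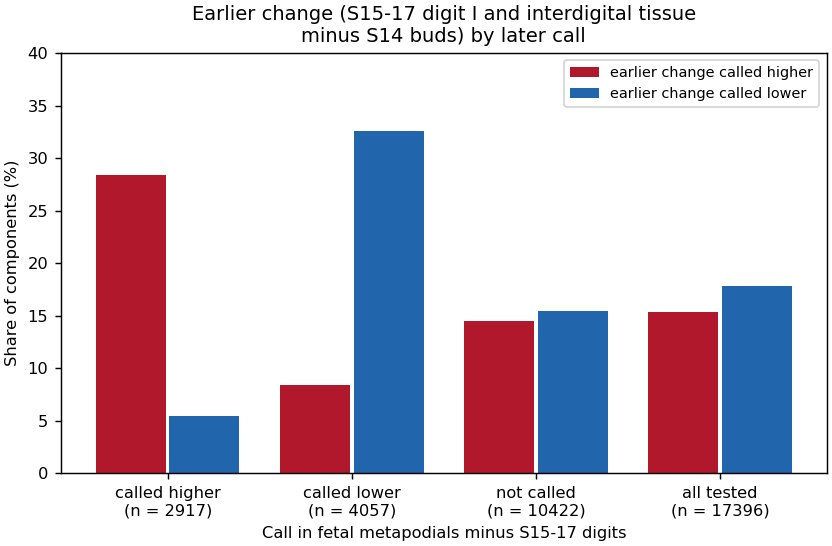
Share of components, in percent, called higher (red) or lower (blue) in S15-17 digit I and interdigital tissue relative to S14 buds, grouped by their call in fetal metapodials relative to S15-17 digits, with all 17396 at the right. The red bar is highest for components called higher in metapodials (28.4%, against 15.4% of all) and the blue bar for those called lower (32.6%, against 17.8%).

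The median level of each list traces the same course through the 14 libraries. Components that rose in the metapodials had a median centred log2 level of 4.87 to 5.07 in the 6 buds and 5.42 to 5.62 in the 6 libraries of S15-17. It was 7.77 in metacarpals and 8.03 in metatarsals. Components that fell had 9.14 to 9.32 in the buds, 8.91 to 9.07 at S15-17, and 7.77 and 7.63 in the fetal pair. Components with no call stayed between 7.01 and 7.11 throughout.

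**Figure D5:**
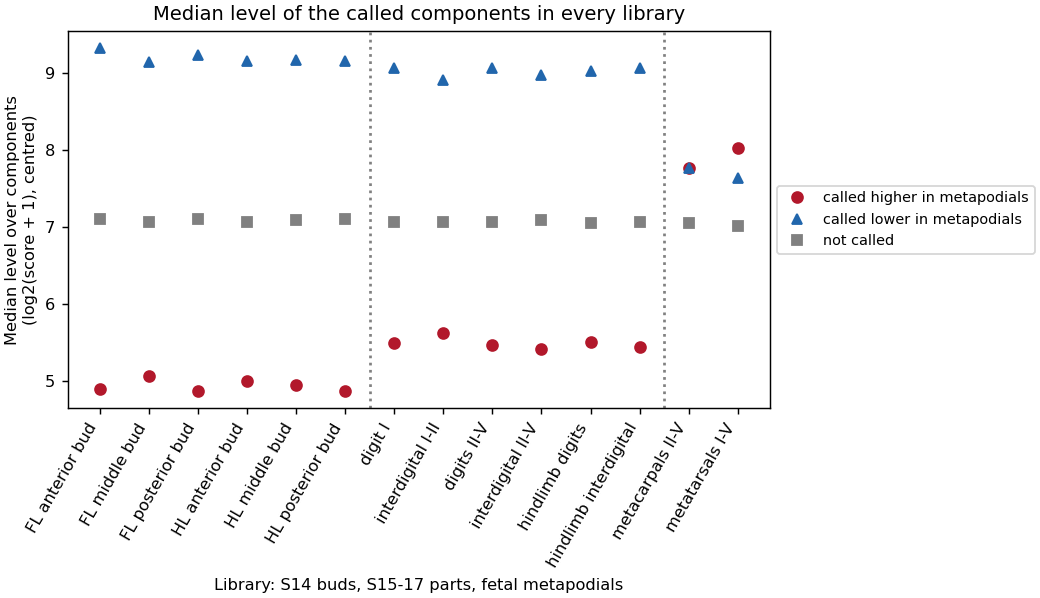
Median centred log2(score + 1) over the components called higher (red), called lower (blue) and not called (grey) in metapodials relative to digits, in each of the 14 libraries in order of stage. The medians of both called lists meet near 7.77 in metacarpals. The 4 libraries of the comparison chose the lists, the other 10 did not. That choice favours a large step between S15-17 and metapodials, so its size is not set against that between buds and S15-17.

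Whether the rising components belonged to digits rather than the tissue between them was asked on the thumb side, where neither library enters the comparison. The median log2 difference of digit I minus interdigital tissue I-II was -0.1 for components that rose in the metapodials, 0.13 for those that fell and 0.03 for all tested. Over 2-fold higher in the interdigital library were 377 of the rises (12.9%), against 4.92% of all tested. Over 2-fold higher in digit I were 180 (6.17%), against 2.6%. The rises had low scores in these libraries, with a median of 43 in digit I and 48 in the interdigital library, against 526 and 480 for the falls and 130 and 133 for components with no call. The part of these low scores in the 2-fold shares was not tested, and nothing is read from the shares. Of the falls, 0.961% were over 2-fold higher in digit I and 0.69% in interdigital tissue. This is 1 library against 1, at 4550754 reads for digit I and 6483035 for the interdigital library, and the part of depth was not tested. Among components with a mean score over 1000 the medians were 0.01 for rises, 0.15 for falls and 0.12 for all, so the order of the lists was the same there.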

How the data were processed

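Messenger RNA libraries were made from DNase-treated total RNA with TruSeq kits, per the labels' protocols. CASAVA 1.8, RSEM and edgeR are named in the submitters' processing notes, without role or order; the assembly and the scaling method are not given in the sources used here. The deposited table holds a score per component, a normalized count rounded to whole numbers by the authors. In each library the scores fall on rounded multiples of 1 step, the score of 1 read (1.2889 to 2.2318). Steps were set on scores up to 2000, and 99.981% to 100.0% of all nonzero scores equal a whole number of steps after rounding. Reads recovered in this way served for depth, detection and exact intervals.

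The 17396 components that averaged 20 or more over the 4 libraries were kept, which held 98.3% of the score. Log2(score + 1), centred on library medians, was fitted across all of them in limma (version 3.58.1, R 4.3.3) with an intensity trend and limb as block. The fit has 1 residual degree of freedom, to which the shared prior adds 4.26. Values of log2 understate the change of low components. The test was tried on simulated data that held no limb differences, so nothing about the calls is read from that trial. The rest used Python 3.11.15 (scipy 1.17.1, numpy 2.4.6, matplotlib 3.10.9, pandas 2.3.3). The comparison, filter, lists and tests were chosen with earlier results of these data known.

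Named components are the 2 called rises and 2 called falls with the largest differences and the same sign in both limbs, the 2 most abundant called rises and falls, and the largest opposite changes between limbs. Alternatives were other scalings, pseudocounts of 0.25 and 5, other filters, no block, robust shrinkage, other reference libraries and leaving out each library. Limma voom on recovered reads and the fits that leave out a library with the spread pooled over the other 13 were added after seeing the data.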

Additional observations from a re-analysis of the deposited data

Results flagged for a closer look

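Among the 12 components that moved over 4-fold in opposite directions in the 2 limbs, 2 had the widest gap between the limb changes. Component comp24758_c0 scored 76 in metacarpals and 0 in metatarsals, against 0 in forelimb digits II-V and 7 in hindlimb digits. Its forelimb change exceeded its hindlimb change by 9.16 on the log2(score + 1) scale. Component comp30301_c0 scored 80 in metacarpals and 2 in metatarsals, against 0 in forelimb digits II-V and 14 in hindlimb digits, a gap of 8.55. In the S14 buds both ran from 0 to 2. The difference between limbs was not tested, since each part has 1 library. The hindlimb side rests on few reads, 0 against 4 for comp24758_c0 and 1 against 8 for comp30301_c0. No component with the opposite combination passed the same limits, so none is named.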

How the results depend on the processing

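The count of 6974 called components was 13228 with no filter, 6940 higher and 6288 lower. With all 6 S15-17 libraries as the reference it was 10490, with 6217 lower. The number lower was 2622 with upper-quartile scaling, and the number higher 1731 at a mean score of at least 100. Leaving out 1 library gave 0 to 9320 called, 0 to 3967 higher and 0 to 5353 lower in fits of 3 libraries, and 8336 to 9344 called, 3069 to 3756 higher and 5052 to 5588 lower with the spread pooled over the other 13. The 0 came without either digit library. Pooling assumes that a lone library varies like the other groups, and there digit I joins the digits. At most 2 of the 6974 changed sign in any alternative. Without the limb block (no replicate block) 7158 were called, of which 2628 rises and 3853 falls were shared with the main list. Voom called 7415. Over 4-fold higher in both limbs were 620 components at a mean score of at least 100 and 4150 with no filter, and over 4-fold lower 278 and 1788, where fewer or more components were tested. For the 8 named components with a test, 151 of 168 values kept direction and call, 17 lost the call and 0 reversed. Of the 17, 16 came without a digit library, where limma's adjusted p was 0.088 to 0.17. The earlier change called 4370 to 6314 without each library.

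With 1 library per part, the spread within a part was not measured. Intervals and floors cover counting error only, and low components near the filter can be missed.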

Other observations

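Some components share an assembly number and differ only in the final index, and 480 such numbers had at least 2 tested components. For the 431 numbers with exactly 2, the differences between metapodials and digits were hardly related, with a Pearson r of 0.094 across numbers and the same sign in 55.7%. Both components were called in the same direction in 56 of them and in opposite directions in 32, while 1 was called in 202 and none in 141. Of all tested components 40.1% were called, 16.8% higher and 23.3% lower, and these counts were not tested against that background. The labels do not say what a shared number means.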
